A study of Mus musculus with 12 samples.

Results

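Whether the gene expression that went with the Arg1 reporter in tumour macrophages depended on the tumour was examined in 12 bulk RNA-seq libraries, all those of the series. They formed 6 pairs, each holding the RFP+ and the RFP- library of 1 tumour and 1 title number. Each of the 4 groups had 3 libraries: RFP+ and RFP- cells of B16F10, a mouse melanoma line, and RFP+ and RFP- cells of MC38, a mouse colon adenocarcinoma line. All hosts were Arg1-RFP mice, in which a red fluorescent protein reports arginase 1, and no host without the reporter and no untreated tissue was among the groups. The labels state neither age, sex nor time after implantation. Every sorted cell had to be CD45+, MHCII+, F4/80+ and CD11b+ and to lack NK1.1, B220, CD90.2, Ly6C and Ly6G, so that MHC class II and CD11b were required in both gates. For each gene the RFP+ minus RFP- difference on the scale log2(FPKM + 1) was taken within a pair and is called the gate effect. FPKM are fragment numbers relative to the length of the transcript and the size of the library. The gate effect in B16F10 minus that in MC38 was the quantity compared, over the 11808 genes that reached 1 FPKM in 3 or more libraries. Library values stand in the order of title numbers 12, 11 and 3 for B16F10 and 1, 2 and 3 for MC38.

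Arginase 1 splits arginine into ornithine and urea. In macrophages it is induced by IL-4 and IL-13 through STAT6 and also by low oxygen, lactate and cyclic AMP, so cells with this enzyme can arise under different signals. Macrophages take up, digest and present material from their surroundings, secrete chemokines that recruit other leukocytes, and remodel matrix through proteases and matrix proteins. Many of these programmes are known to vary with the tissue in which a macrophage lives.

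The B16F10 libraries were shallower, since the FPKM that 1 read stood for, taken from low genes, was 2.82 to 3.37 times that of the MC38 RFP- library number 3, against 0.932 to 1.10 times for the MC38 libraries. Total FPKM ran from 614875 to 815591. The B16F10 RFP- library number 12 stood apart, with the highest total, the most genes listed at 0 (10597) and a median correlation of 0.946 across genes with the other B16F10 libraries, against 0.967 to 0.975 for these. The summed FPKM of 17 macrophage core genes was 7318 to 14674 in B16F10 RFP+, 5793 to 10803 in B16F10 RFP-, 38352 to 39290 in MC38 RFP+ and 29844 to 32621 in MC38 RFP- libraries. The summed FPKM of 12 melanocytic genes was 8492 to 11148 in B16F10 RFP+ and 8523 to 11127 in B16F10 RFP- libraries, against 11.6 to 20.1 in MC38. Pigment cell RNA was thus present in both B16F10 gates, at ranges that overlapped. The median gate effect of the 12 melanocytic genes in B16F10 was -0.03, and none of them passed in either tumour or for the difference. In bulk samples fewer cells of a type and less RNA per cell cannot be told apart.

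**Figure D1:**
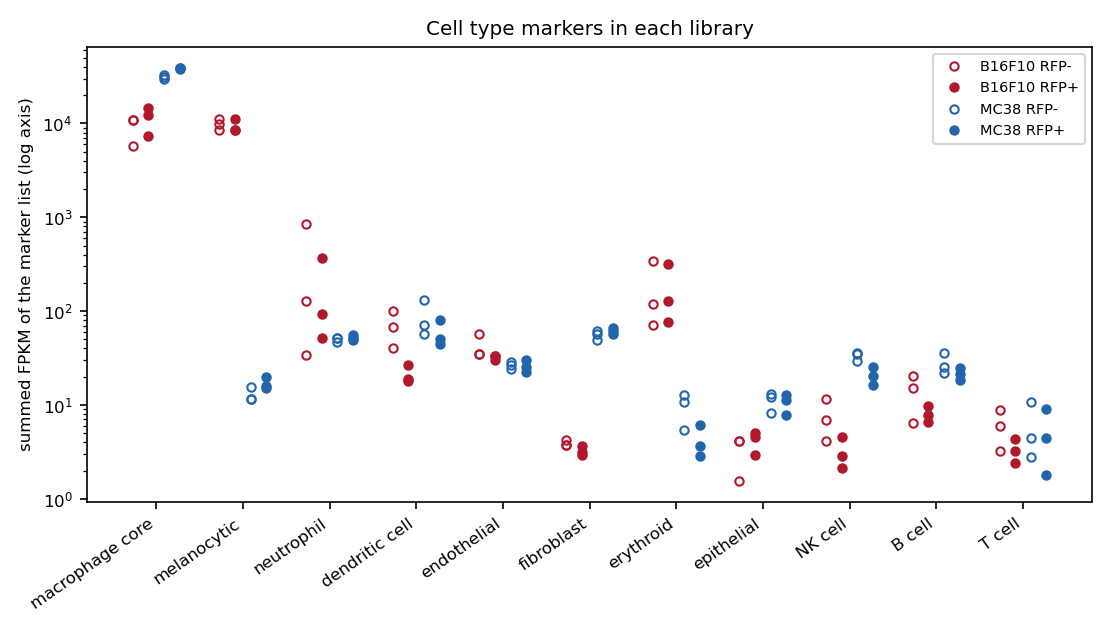
Summed FPKM of each cell type marker list (log axis) in each of the 12 libraries, 1 point per library, open for RFP- and filled for RFP+, red for B16F10 and blue for MC38. The melanocytic sum lies between 8492 and 11148 in the B16F10 libraries and between 11.6 and 20.1 in MC38, with no separation of the gates in B16F10.

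Arg1, the gene that the RFP reports, rose in both tumours. The gates were set on the RFP reporter, so this rise within each tumour is a check of the sort. Arg1 was at 615, 642 and 916 FPKM in B16F10 RFP+ and 62.8, 56.2 and 125 FPKM in B16F10 RFP- libraries, and at 471, 553 and 394 FPKM in MC38 RFP+ and 56, 58.5 and 40.6 FPKM in MC38 RFP- libraries. In both tumours each RFP+ library lay above each RFP- library. The gate effects were 3.21 ± 0.13 (SE) in B16F10 and 3.17 ± 0.13 in MC38 (limma adjusted p = 1.53e-06 and 1.71e-06), and their difference of 0.034 ± 0.18 did not pass (limma adjusted p = 0.957). Its sign turned without the number 11 pair of B16F10 (-0.11) or the number 1 pair of MC38 (-0.027).

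Over all genes the gate effects of the tumours were weakly correlated. Across the 11808 genes, which are not independent replicates, r was 0.23, and the means had the same sign in 6293 genes (53.3%). The SD of the gate effect over genes was 0.37 in B16F10 and 0.25 in MC38. Between single pairs r ran from 0.17 to 0.32 within B16F10, from 0.16 to 0.23 within MC38 and from -0.0069 to 0.22 between the tumours, so that pairs of 1 tumour were also only loosely alike. These correlations are descriptions over libraries of unequal depth.

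Genes past the threshold (limma, pairs as a block, adjusted p under 0.05 over all genes tested) were 98 higher (0.83%) and 62 lower (0.525%) in B16F10 RFP+ cells. In MC38 42 were higher (0.356%) and 10 lower (0.0847%), among them the small nucleolar RNA gene Snord15b, whose call is no valid test because it passed the filter through the group where it was high. Without the block 21 genes passed in B16F10 and 3 in MC38, so most calls within a tumour given here rest on the pairing, and over left-out pairs the numbers were 52 to 221 and 6 to 137. Both tumours called 26 genes with the block, 24 higher in both, 2 lower in both and 0 in opposite directions. The 98 genes higher in B16F10 had a median gate effect of 1.11 there and 0.49 in MC38, where 89 (90.8%) had the same sign. The 62 lower genes had a median of -0.98 in B16F10 and -0.23 in MC38, with the same sign in 50. Of the genes chosen in MC38, the 42 higher ones had a median of 1.04 there and 0.83 in B16F10, with the same sign in 38. The 10 lower ones had a median of -1.47 in MC38 and -0.36 in B16F10, with the same sign in 9 and a smaller size in 10. Since each set was chosen on its own tumour's values, a smaller value in the other tumour is no test of a difference.

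The test of the difference itself called 4 genes, of which 3 were detected (FPKM above 0) in both tumours. The gate effect was higher in B16F10 for 3 of 11808 genes (0.0254%), Ppbp, Ctsl and Snord15b, and higher in MC38 for 1 gene (0.00847%), Ass1. At an unadjusted p under 0.05 the number was 1009 (8.55%). Without the pairs as a block 0 genes passed in limma, and 455 (3.85%) had an unadjusted p under 0.05. The median standard error of the difference over genes was 0.26, so that small differences were not resolved with 3 pairs against 3.

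**Figure D2:**
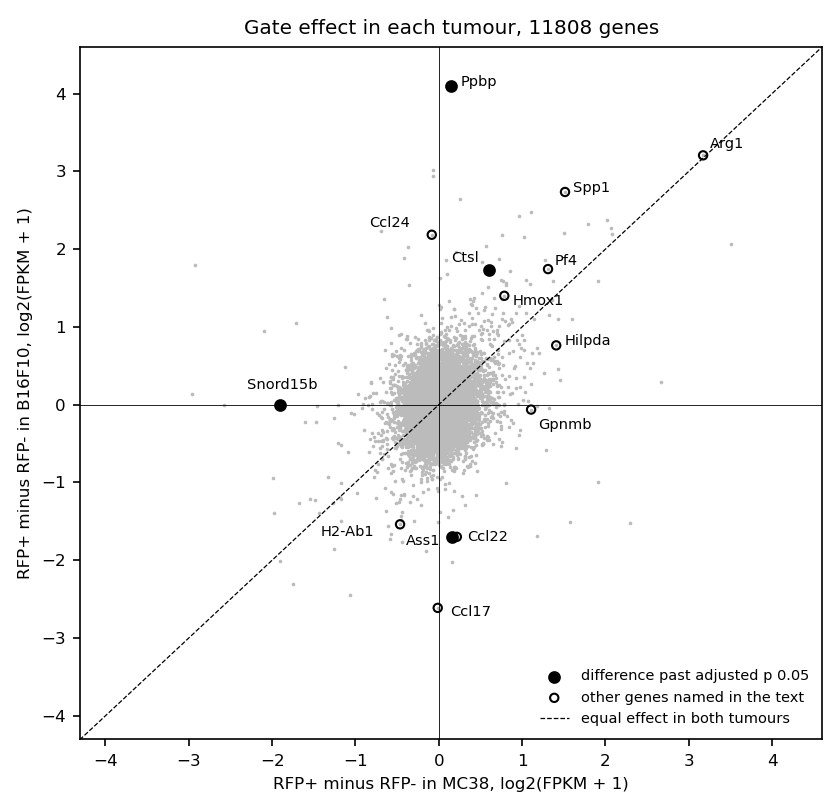
Gate effect (RFP+ minus RFP-, log2(FPKM + 1)) in MC38 on the x axis and in B16F10 on the y axis, 1 grey point per gene tested. Filled black points are the 4 genes past the threshold for the difference, and open points are other genes described in the text. Arg1 lies on the line of equal effects, Ppbp at 4.10 in B16F10 and 0.14 in MC38, and Ass1 at -1.70 and 0.16.

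Ppbp, the gene of pro-platelet basic protein, a CXC chemokine precursor stored in platelets that yields the CXCR2 ligand NAP-2 (CXCL7), gave the largest called difference. It was at 46.9, 162 and 119 FPKM in B16F10 RFP+ and 1.97, 3.84 and 11.9 FPKM in B16F10 RFP- libraries. In MC38 it was at 1.23, 3.16 and 0.0139 FPKM in RFP+ and 1.66, 1.29 and 0.143 FPKM in RFP- libraries. The B16F10 RFP+ libraries lay above all 9 others, while the gates overlapped in MC38. The gate effect was 4.10 ± 0.33 in B16F10 (limma adjusted p = 0.000199) and 0.14 ± 0.33 in MC38, a difference of 3.96 ± 0.46 (SE, limma adjusted p = 0.0332). Pf4, the neighbouring platelet chemokine gene, rose in both tumours, by 1.74 ± 0.19 in B16F10 (limma adjusted p = 0.00129) and 1.31 ± 0.19 in MC38 (limma adjusted p = 0.0138), with a difference of 0.43 ± 0.26 that did not pass (limma adjusted p = 0.618). Of 12 platelet and megakaryocyte genes 3 were tested, Ppbp, Pf4 and Itgb3. Itgb3, the integrin beta 3 gene, did not rise: it was at 1.08, 2.73 and 1.57 FPKM in B16F10 RFP+ and 1.63, 2.74 and 2.98 FPKM in B16F10 RFP- libraries, lower in RFP+ in all 3 pairs, and at 0.082 FPKM or less in MC38. Its gate effect of -0.33 ± 0.19 in B16F10 did not pass (limma adjusted p = 0.35), nor did the difference of -0.37 ± 0.26 (limma adjusted p = 0.645). The summed list, most of which was Pf4, was 1371 to 2253 FPKM in B16F10 RFP+ libraries, 287 to 700.02 in B16F10 RFP-, 251 to 437 in MC38 RFP+ and 88.2 to 218 in MC38 RFP-.

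Ctsl, the gene of the lysosomal cysteine protease cathepsin L, rose in both tumours and more in B16F10. It was at 296, 296 and 341 FPKM in B16F10 RFP+ and 92.2, 85.6 and 100.1 FPKM in B16F10 RFP- libraries, and at 232, 292 and 210.01 FPKM in MC38 RFP+ and 166, 189 and 131 FPKM in MC38 RFP- libraries. The gates did not overlap in either tumour, and the RFP- libraries of MC38 lay above those of B16F10. The gate effect was 1.74 ± 0.10 in B16F10 (limma adjusted p = 2.46e-05) and 0.60 ± 0.10 in MC38 (limma adjusted p = 0.0385), a difference of 1.14 ± 0.15 (limma adjusted p = 0.0332).

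Ass1, the gene of argininosuccinate synthase, which with argininosuccinate lyase rebuilds arginine from citrulline, went the other way. It was at 1.41, 0.471 and 0.982 FPKM in B16F10 RFP+ and 7.71, 3.39 and 5.31 FPKM in B16F10 RFP- libraries, and at 16.4, 19.2 and 15.6 FPKM in MC38 RFP+ and 15.7, 18 and 12.3 FPKM in MC38 RFP- libraries. All B16F10 libraries lay below all MC38 libraries, and only in B16F10 were the gates apart. Ass1 fell by 1.70 ± 0.17 in B16F10 (limma adjusted p = 0.000778) and had a gate effect of 0.16 ± 0.17 in MC38, a difference of -1.86 ± 0.24 (limma adjusted p = 0.0332).

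Snord15b, which guides the modification of ribosomal RNA and was chosen after its values were seen, was listed at 0 in all 6 B16F10 libraries. In MC38 it was at 1.37, 0 and 0 FPKM in RFP+ and 9.3, 2.38 and 2.56 FPKM in RFP- libraries. It reached 1 FPKM in 4 libraries, all 3 MC38 RFP- libraries and 1 MC38 RFP+ library, and so entered the fit through the group where it was high. Its calls in MC38 and for the difference are therefore no valid test, and it is counted with the 4 genes only because the rule took it in. It lies on the minus strand of chromosome 7 from 99479563 to 99479707 (GRCm38), and no fold is given for a gene listed at 0.

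None of these 4 calls held in every other setting. Over 15 settings for Ppbp, Ctsl and Ass1 the differences stayed between 3.26 and 4.48, 1.08 and 1.32, and -2.60 and -0.92, with limma adjusted p from 0.0126 to 0.895, 0.00711 to 0.895 and 0.0155 to 0.895. Each of the 3 lost its call without the block, with no filter and without the number 11 pair of B16F10 or the number 1 or 3 pair of MC38. Ppbp also lost it without the number 12 pair of B16F10, and Ctsl and Ass1 without the number 3 pair of B16F10 or the number 2 pair of MC38. With a pseudocount of 0.1 Ppbp and Ctsl lost it, and with a pseudocount of 5 Ctsl and Ass1 did. Without the trend Ppbp and Ctsl lost it. The calls of Ppbp, Ctsl and Ass1 held in 7, 4 and 7 of the 15 settings. After scaling to the macrophage core genes Ppbp and Ass1 passed and Ctsl did not.

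**Figure D3:**
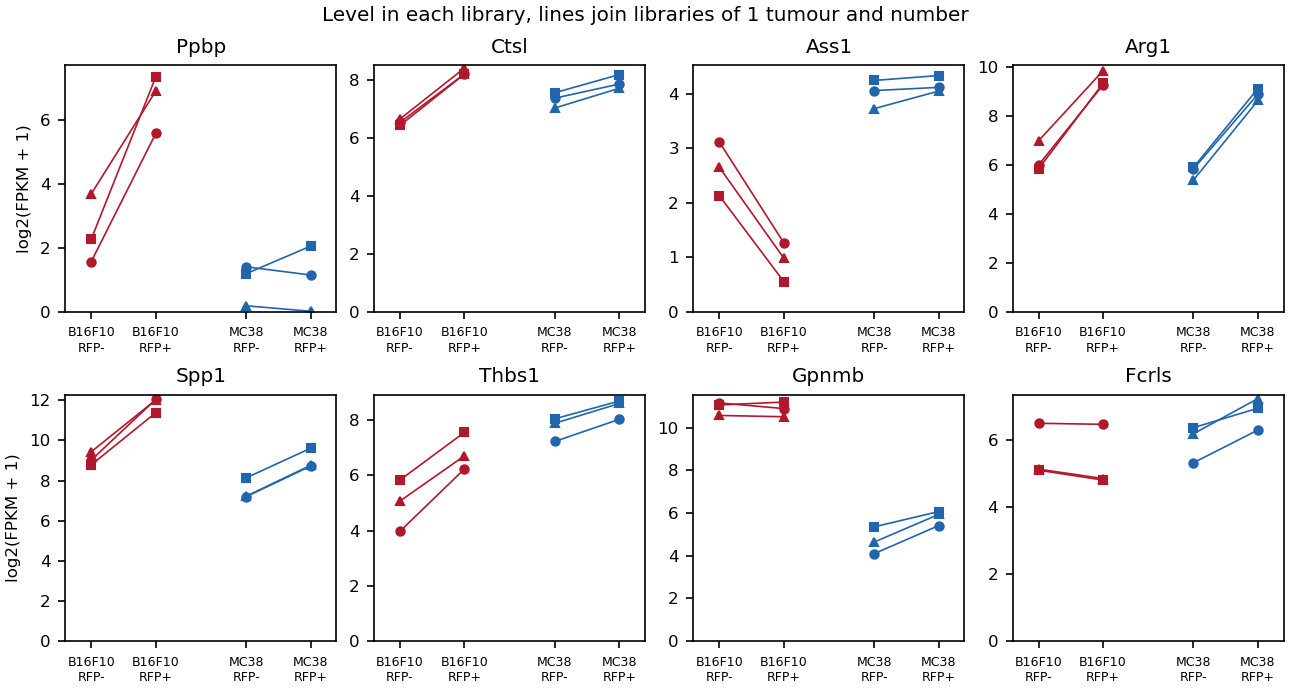
Level of 8 genes in each library as log2(FPKM + 1), lines joining the RFP- and RFP+ libraries of 1 pair (circle, square and triangle for numbers 12, 11 and 3 of B16F10 in red and 1, 2 and 3 of MC38 in blue). Ppbp rises steeply in the B16F10 pairs and is low in MC38, Ass1 falls in the B16F10 pairs alone, and Arg1 rises in all 6 pairs.

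The promoters of the 3 protein-coding genes are shown because these genes carry the called differences. They come from RefSeq (GRCm38.p6), 250 bases before to 50 after the start, and are written 5′ to 3′ along the gene. Capitals mark ACGTG (the core bound by hypoxia-inducible factors and part of the E-box CACGTG) and TGANTCA (an AP-1 type motif), searched on both strands, with neighbouring matches joined. Ctsl lies on the minus strand of chromosome 13 (64359337 to 64370890), Ppbp on the plus strand of chromosome 5 (90768518 to 90770063) and Ass1 on the plus strand of chromosome 2 (31470207 to 31520672). These spans are from GENCODE, whose gene start differs from the RefSeq start for Ctsl and Ass1. The whole Ctsl window and the marked CACGTG of Ass1 thus lie inside the GENCODE spans, downstream of the GENCODE starts.
Ppbp, chr5:90768268-90768567, plus strand: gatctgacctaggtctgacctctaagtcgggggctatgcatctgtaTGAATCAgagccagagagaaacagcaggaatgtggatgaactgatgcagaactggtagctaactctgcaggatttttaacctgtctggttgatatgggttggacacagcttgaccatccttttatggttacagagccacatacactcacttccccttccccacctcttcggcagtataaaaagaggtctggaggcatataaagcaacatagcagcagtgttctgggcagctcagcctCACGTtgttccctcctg
Ctsl, chr13:64370471-64370770, minus strand: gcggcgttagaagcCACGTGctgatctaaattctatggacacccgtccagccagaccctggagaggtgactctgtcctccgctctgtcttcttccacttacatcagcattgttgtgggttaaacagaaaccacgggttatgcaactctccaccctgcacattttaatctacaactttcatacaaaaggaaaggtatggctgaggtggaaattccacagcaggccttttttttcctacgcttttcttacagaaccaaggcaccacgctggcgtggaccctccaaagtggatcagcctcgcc
Ass1, chr2:31470020-31470319, plus strand: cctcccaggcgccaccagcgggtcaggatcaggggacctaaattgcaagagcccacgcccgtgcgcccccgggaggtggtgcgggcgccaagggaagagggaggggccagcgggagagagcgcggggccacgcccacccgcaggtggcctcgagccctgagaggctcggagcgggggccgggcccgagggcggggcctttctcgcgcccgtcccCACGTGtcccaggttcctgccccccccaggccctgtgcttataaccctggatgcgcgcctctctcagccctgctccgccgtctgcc
In Ass1 and Ctsl the capitals spell the palindrome CACGTG, which matches ACGTG on both strands, and in Ppbp 1 match to each motif was found. No match to TTCNNNGAA, a STAT motif, lay in these 3 windows. Of 32851 promoters of this length 19.6% held ACGTG, 7.81% held TGANTCA and 8.3% held TTCNNNGAA. These matches are descriptions, and binding was not measured.

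Several genes had a higher gate effect in B16F10 without passing for the difference, each with paired differences that did not overlap between the tumours. Such separation with B16F10 above was found in 842 of all genes (7.13%) and with MC38 above in 1096 (9.28%), so that on its own it is common. Spp1, the gene of the secreted glycoprotein osteopontin, was at 4238, 2671 and 4154 FPKM in B16F10 RFP+ and 519, 441 and 692 FPKM in B16F10 RFP- libraries, and at 422, 783 and 433 FPKM in MC38 RFP+ and 146, 280.3 and 148 FPKM in MC38 RFP- libraries. The gates were apart in both tumours, and the B16F10 RFP+ libraries were the highest. Spp1 rose by 2.74 ± 0.12 in B16F10 and 1.52 ± 0.12 in MC38 (limma adjusted p = 2.1e-06 and 0.000553), and the difference of 1.22 ± 0.17 had a limma adjusted p of 0.0668. That difference passed with quantile normalization (adjusted p = 0.00999), with upper-quartile scaling (0.0447) and without the number 12 pair of B16F10 (0.00578).

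Thbs1, the gene of the matrix protein thrombospondin 1, was at 73.8, 186 and 103 FPKM in B16F10 RFP+, 14.7, 55.7 and 32.4 in B16F10 RFP-, 259, 409.6 and 385 in MC38 RFP+ and 148, 262 and 234 in MC38 RFP- libraries. It was higher in RFP+ in 6 of 6 pairs, and all MC38 RFP- libraries but number 1 lay above all B16F10 libraries. Its gate effects of 1.87 ± 0.13 and 0.72 ± 0.13 differed by 1.15 ± 0.19 (limma adjusted p = 0.149), and this passed without the number 12 pair of B16F10 (0.0246). Ccl24, the gene of the eosinophil chemokine eotaxin-2, had gate effects of 2.19 ± 0.27 in B16F10, where it passed (limma adjusted p = 0.00283), and -0.084 ± 0.27 in MC38, a difference of 2.27 ± 0.38. In MC38 its libraries spread from 0.254 to 17.2 FPKM, with the number 3 pair low in both gates. Ednrb, the endothelin receptor type B gene, which melanocytic cells also use, had gate effects of 1.97 ± 0.21 and 0.20 ± 0.21, a difference of 1.76 ± 0.29. In MC38 it was at 0.265, 4.04 and 0.189 FPKM in RFP+ and 0.254, 2.11 and 0.278 in RFP- libraries. The number 1 and 3 pairs of MC38 were thus too low to show a change, with differences of 0.013 and -0.10 against 0.70 in number 2. Itgam, the gene of the gating marker CD11b, was at 49.5, 43.4 and 65.8 FPKM in B16F10 RFP+, 23.9, 20.5 and 44.1 in B16F10 RFP-, 181, 175 and 224 in MC38 RFP+ and 197, 179 and 212 in MC38 RFP- libraries. It rose by 0.88 ± 0.12 in B16F10 (limma adjusted p = 0.00675) and had a gate effect of -0.022 ± 0.12 in MC38, and Gadd45g, a stress-induced growth arrest gene, did so with 0.75 ± 0.12 and -0.11 ± 0.12. The differences for Ccl24, Ednrb, Itgam and Gadd45g had limma adjusted p of 0.149, 0.149, 0.298 and 0.298.

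In the opposite direction, some genes responded in MC38 and not detectably in B16F10. Fcrls, an Fc receptor-like scavenger receptor gene of resident macrophages, was at 87.4, 26.9 and 27.8 FPKM in B16F10 RFP+, 89.4, 33.3 and 34 in B16F10 RFP-, 77.7, 122 and 149.6 in MC38 RFP+ and 39, 81.5 and 71.8 in MC38 RFP- libraries. Every MC38 pair was higher in RFP+ and every B16F10 pair slightly lower. Its gate effect was 0.87 ± 0.13 in MC38 (limma adjusted p = 0.0163) and -0.20 ± 0.13 in B16F10, a difference of -1.07 ± 0.18 (limma adjusted p = 0.149). Gpnmb, a glycoprotein gene of lipid-laden macrophages and of pigment cells, was at 1895, 2337 and 1453 FPKM in B16F10 RFP+, 2272, 2131 and 1515 in B16F10 RFP-, 41.5, 66 and 60 in MC38 RFP+ and 16.1, 39.8 and 23.9 in MC38 RFP- libraries. All B16F10 libraries were far above all MC38 libraries. Gpnmb rose by 1.11 ± 0.14 in MC38 (limma adjusted p = 0.00986) and had a gate effect of -0.063 ± 0.14 in B16F10, a difference of -1.17 ± 0.20 (limma adjusted p = 0.149).

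P4ha2, a collagen prolyl hydroxylase gene induced by low oxygen, and Syngr1, a vesicle membrane protein gene, had the same shape. P4ha2 was at 53.1, 59.7 and 44 FPKM in B16F10 RFP+, 52, 56.5 and 42.3 in B16F10 RFP-, 15.9, 15.4 and 13.6 in MC38 RFP+ and 7.97, 5.34 and 6.73 in MC38 RFP- libraries, with a difference of -1.01 ± 0.20 between gate effects of 0.054 ± 0.14 and 1.07 ± 0.14. For Syngr1 the gate effects were -0.32 ± 0.17 and 0.97 ± 0.17, a difference of -1.29 ± 0.23 that passed with quantile normalization (adjusted p = 0.0474). Levels of Gpnmb, P4ha2 and Syngr1 were higher in both gates of B16F10, where the melanocytic sum was also far above that of MC38, and the part of that RNA in their gate effects was not tested. For Ifitm1, an interferon-induced membrane protein gene, and Cib2, a calcium-binding protein gene, it was B16F10 in which the genes fell, by 1.38 ± 0.18 and 1.16 ± 0.21 (limma adjusted p = 0.00336 and 0.0214). Their gate effects in MC38 were 0.014 ± 0.18 and 0.45 ± 0.21, and the differences were -1.40 ± 0.25 and -1.61 ± 0.29. The differences for P4ha2, Syngr1, Ifitm1 and Cib2 had limma adjusted p of 0.298, 0.199, 0.199 and 0.199.

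Genes whose effect turned sign, with all 3 pairs up in 1 tumour and all 3 down in the other, numbered 218 (1.85%) for B16F10 up and 299 (2.53%) for MC38 up. Against these, 534 genes were up in all 6 pairs and 474 down in all 6. With a mean of at least 5 FPKM in a group and a mean paired difference of at least 0.5 in both tumours, 2 genes in each orientation remained. Lpl, the lipoprotein lipase gene, was at 85.8, 32.5 and 81.4 FPKM in B16F10 RFP+, 24.6, 30 and 57.5 in B16F10 RFP-, 10.7, 11.2 and 4.73 in MC38 RFP+ and 14.3, 21.3 and 6.9 in MC38 RFP- libraries. In B16F10 the pair with the smallest difference was number 11. Its gate effects of 0.79 ± 0.26 and -0.58 ± 0.26 differed by 1.36 ± 0.37 (limma adjusted p = 0.489). Msh3, a mismatch repair gene, was likewise higher in RFP+ in B16F10 (0.66 ± 0.22) and lower in MC38 (-0.56 ± 0.22). Fxyd2, a regulator gene of the sodium pump, and Bdh2, a dehydrogenase gene, had gate effects of -1 ± 0.26 and -0.51 ± 0.21 in B16F10 and 0.81 ± 0.26 and 0.66 ± 0.21 in MC38. Both were low in places. Fxyd2 was at 1.29, 0.302 and 0 FPKM in B16F10 RFP+ libraries, and Bdh2 was at 0.235 to 2.45 FPKM in MC38. Single pairs lay near 0, at 0.030 for Fxyd2 in the number 2 pair of MC38 and -0.097 for Msh3 in its number 3 pair. None of these 4 passed in either tumour or for the difference, whose limma adjusted p ran from 0.332 to 0.489.

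For other genes commonly used to describe such macrophages the difference did not pass. Hilpda, a lipid droplet gene induced by low oxygen, rose in both, by 0.76 ± 0.11 in B16F10 and 1.41 ± 0.11 in MC38 (limma adjusted p = 0.00713 and 0.000553), and the difference of -0.65 ± 0.16 had a limma adjusted p of 0.392. Hmox1, the heme oxygenase 1 gene, rose by 1.40 ± 0.11 and 0.79 ± 0.11 (limma adjusted p = 0.000199 and 0.012), with a difference of 0.61 ± 0.16 (limma adjusted p = 0.474). Clec4d, a C-type lectin receptor gene, rose by 1.27 ± 0.13 and 0.96 ± 0.13, a difference of 0.31 ± 0.18 (limma adjusted p = 0.608). For Nos2, the inducible nitric oxide synthase gene, Mrc1, the mannose receptor gene, Cd274, the PD-L1 gene, and Cxcl9, a CXCR3 ligand gene, the differences were -0.19 ± 0.25, 0.40 ± 0.22, 0.21 ± 0.20 and -0.26 ± 0.20, with limma adjusted p from 0.601 to 0.795. A p above the threshold does not show that these effects were equal.

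The 25 gene lists were described by the median gate effect of their members in each pair, beside all genes tested, whose median difference between the tumours was -0.022. In 6 of 25 lists the 3 pair medians of 1 tumour lay apart from those of the other. B16F10 was above for chemokines and the type I interferon response, and MC38 for glycolysis, MHC class II presentation, MHC class I presentation and, by a narrow gap, alternative activation. These are counts and medians with no test of a list, and several lists share members. Counts of members are set beside the shares over all genes tested, which were 7.13% for pairs of B16F10 above those of MC38 and 9.28% for MC38 above, and for genes called 0.83% higher and 0.525% lower in B16F10 and 0.356% higher and 0.0847% lower in MC38.

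**Figure D4:**
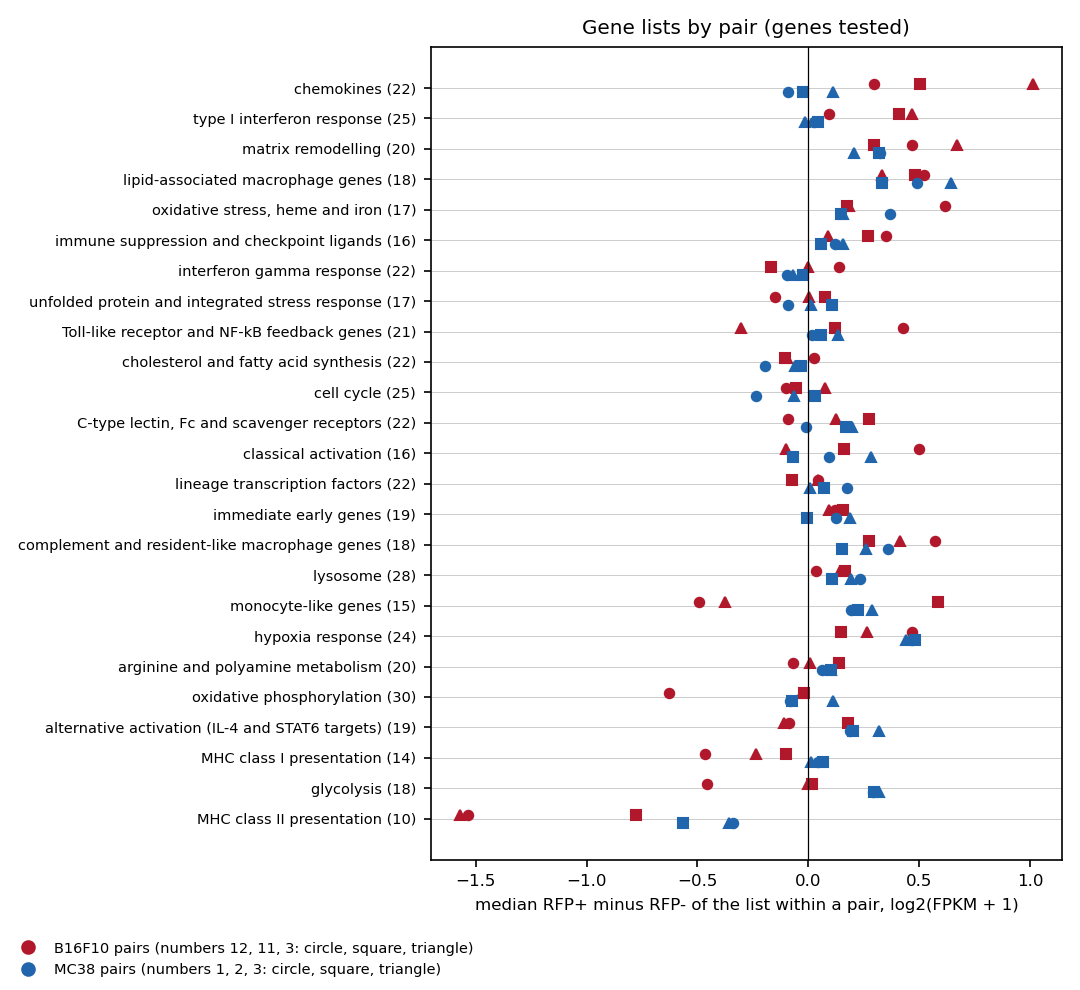
Median gate effect of each of 25 lists (number of genes tested in parentheses) in each of the 6 pairs, red for B16F10 and blue for MC38, on the scale log2(FPKM + 1), ordered by the median difference. MHC class II presentation is below 0 in all pairs and lowest in B16F10, glycolysis is between 0.29 and 0.32 in the MC38 pairs, and chemokines are highest in B16F10.

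Glycolysis, the pathway from glucose to pyruvate and lactate, was above 0 in MC38 and not in B16F10. Its 18 genes had pair medians of 0.29, 0.30 and 0.32 in MC38 and -0.46, 0.01 and -0.00 in B16F10. The median difference was -0.41, and 17 of 18 members had a negative difference. For 13 of 18 the MC38 pairs lay above all B16F10 pairs (9.28% of all genes), while 0 members passed in either tumour or for the difference. Aldoa, the aldolase A gene, was at 3095, 4107 and 3418 FPKM in B16F10 RFP+, 5758, 3926 and 3608 in B16F10 RFP-, 2089, 1903 and 1862 in MC38 RFP+ and 1508, 1472 and 1356 in MC38 RFP- libraries. In MC38 all RFP+ libraries lay above all RFP- libraries, and in B16F10 the RFP- library number 12 was the highest of all 12. The differences for Aldoa, Tpi1 (triosephosphate isomerase) and Pfkl (liver phosphofructokinase) were -0.74 ± 0.26, -0.69 ± 0.24 and -0.71 ± 0.20, with limma adjusted p of 0.528, 0.523 and 0.489. Pgk1, the phosphoglycerate kinase gene, named after its values were seen, had gate effects of -0.074 ± 0.11 in B16F10 and 0.32 ± 0.11 in MC38, with all 3 B16F10 pairs below 0 and all 3 MC38 pairs above 0. Without the number 12 pair the list medians were -0.01 in B16F10 and -0.26 for the difference. Aldoa, Tpi1, Pfkl and Pgk1 were at higher FPKM in every B16F10 library than in any MC38 library, as was the melanocytic sum, and the part of that RNA in these gate effects was not tested.

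The hypoxia response, which shares genes with glycolysis, was above 0 in both tumours, with medians over 24 genes of 0.34 in B16F10 and 0.51 in MC38 and overlapping pair medians. Without the number 12 pair the median was 0.20 in B16F10, the median difference went from -0.13 to -0.20, and all MC38 pair medians lay above those of B16F10. In each tumour 4 of 24 members rose (0.83% of all genes in B16F10 and 0.356% in MC38). MC38 lay above B16F10 for 6 of 24 members (9.28% of all genes) and B16F10 above MC38 for 1 of 24 (7.13% of all genes), which is below that share. P4ha2, Hilpda and Ddit4, an inhibitor gene of mTOR signalling, had the smallest unadjusted p, with differences of -1.01 ± 0.20, -0.65 ± 0.16 and -1.12 ± 0.30. Bnip3, a mitophagy gene named after its values were seen, rose in MC38 by 0.85 ± 0.12 (limma adjusted p = 0.0113) and had a gate effect of 0.37 ± 0.12 in B16F10, and the difference of -0.47 ± 0.16 did not pass (limma adjusted p = 0.525). Oxidative phosphorylation (30 genes) had medians of -0.22 in B16F10 and -0.01 in MC38, with 27 of 30 differences below 0. Its median difference of -0.25 was -0.038 without the number 12 pair and -0.032 with quantile normalization, and 0 members passed.

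MHC class II presentation, which displays peptides to CD4 T cells, was lower in RFP+ cells in all 6 pairs and more so in B16F10. Over the 10 genes tested of 11 listed the pair medians were -1.54, -0.78 and -1.57 in B16F10 and -0.34, -0.57 and -0.36 in MC38. In B16F10 6 of 10 members fell (0.525% of all genes) and in MC38 0 did (0.0847% of all genes), and 0 passed for the difference. For 6 of 10 all MC38 pairs lay above all B16F10 pairs (9.28% of all genes). H2-Ab1, a beta chain gene, was at 584, 792 and 806 FPKM in B16F10 RFP+, 2075, 1381 and 3199.7 in B16F10 RFP-, 12745, 10953 and 9683 in MC38 RFP+ and 15958, 17137 and 12979.6 in MC38 RFP- libraries. The gates did not overlap in either tumour, and every MC38 library was above every B16F10 library. H2-Ab1 fell by 1.54 ± 0.21 in B16F10 (limma adjusted p = 0.00586), its gate effect in MC38 was -0.46 ± 0.21 (limma adjusted p = 0.831), and the difference was -1.07 ± 0.30 (limma adjusted p = 0.489).

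The alpha chain gene H2-Aa had gate effects of -1.48 ± 0.17 and -0.45 ± 0.17, a difference of -1.03 ± 0.24 (limma adjusted p = 0.392). H2-DMa and H2-DMb1, chains of the peptide exchange factor, differed by -0.95 ± 0.23 and -0.75 ± 0.19 (limma adjusted p = 0.392 and 0.444). The median difference of the list was -0.89, and -0.77 without the number 12 pair. Markers of dendritic cells, a class II rich cell type, summed to 18.2 to 26.8 FPKM in B16F10 RFP+ and 40.2 to 99.7 in B16F10 RFP- libraries, and to 44.2 to 80.4 in MC38 RFP+ and 56.7 to 130 in MC38 RFP- libraries. Of 12 dendritic cell genes tested 3 fell in B16F10 (0.525% of all genes) and 0 in MC38 (0.0847% of all genes), with median gate effects of -0.62 and -0.28. In each tumour 7 of these genes were lower in RFP+ in all 3 pairs. The difference between the tumours was above 0 for 5 dendritic cell genes and below 0 for 7. Their part in the class II values was not tested.

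MHC class I presentation, which displays peptides to CD8 T cells, had medians over 14 genes of -0.28 in B16F10 and 0.06 in MC38, a median difference of -0.35. MC38 lay above B16F10 for 5 of 14 members (9.28% of all genes) and B16F10 above MC38 for 0, and 0 passed in either tumour or for the difference. The differences for the proteasome gene Psmb8, the class Ib gene H2-Q4 and the peptide transporter gene Tap2 were -0.48 ± 0.18, -0.80 ± 0.33 and -0.49 ± 0.22 (limma adjusted p = 0.556, 0.576 and 0.583). Reads of H2-Q4 may be shared with its near-identical neighbours. The median difference was -0.19 without the number 12 pair and -0.17 with quantile normalization.

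Chemokines were the list with the largest median difference toward B16F10, 0.55 over 22 genes, with medians of 0.57 in B16F10 and 0.04 in MC38. In B16F10 10 of 22 members rose (0.83% of all genes) and 4 fell (0.525%), and in MC38 2 rose (0.356%) and 1 fell (0.0847%). Ppbp was the 1 member past for the difference. The list split, since B16F10 lay above MC38 for 10 of 22 members (7.13% of all genes) and below it for 5 (9.28%). Among those above, chosen after their values were seen, were the monocyte chemokine genes Ccl2 and Ccl7 and the neutrophil chemokine gene Cxcl2, with differences of 0.76 ± 0.21, 0.96 ± 0.21 and 0.93 ± 0.19 (limma adjusted p = 0.489, 0.376 and 0.332). Ccl7 was at 1369, 968 and 1911 FPKM in B16F10 RFP+, 878, 636 and 795 in B16F10 RFP-, 393, 701 and 1545 in MC38 RFP+ and 431, 852 and 1495 in MC38 RFP- libraries. The gates were apart in B16F10 and overlapped in MC38, where the number 3 pair was highest in both. Cxcl2 rose in B16F10 (limma adjusted p = 0.0006), as did Ccl7 (0.0214), and neither passed in MC38.

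The 5 below MC38 were Ccl5, Ccl17, Ccl22, Cxcl9 and Cxcl16, whose products attract T cells among others. Ccl5, a CC chemokine gene, was at 30.2, 31.1 and 12.5 FPKM in B16F10 RFP+, 40.1, 97.9 and 47.2 in B16F10 RFP-, 509, 622 and 458 in MC38 RFP+ and 379, 471 and 422 in MC38 RFP- libraries. Each B16F10 pair was lower in RFP+ and each MC38 pair higher, with gate effects of -1.28 ± 0.22 (limma adjusted p = 0.0191) and 0.32 ± 0.22. The difference of -1.60 ± 0.32 had a limma adjusted p of 0.298, and passed without the number 12 pair of B16F10 (0.00123). Ccl22, a CCR4 ligand gene, fell by 1.70 ± 0.32 in B16F10 (limma adjusted p = 0.0309) against 0.22 ± 0.32 in MC38, a difference of -1.92 ± 0.46 (limma adjusted p = 0.392). Cxcl16, the membrane-bound CXCR6 ligand gene named after its values were seen, fell by 0.73 ± 0.10 in B16F10 against -0.054 ± 0.10 in MC38, a difference of -0.67 ± 0.15 (limma adjusted p = 0.376), which passed without the number 12 pair (0.0438). The median difference of the list was 0.34 without the number 3 pair of B16F10. Neutrophils carry Ly6G, against which the sort was gated. The neutrophil marker sum was 52.0 to 369 FPKM in B16F10 RFP+, 34.3 to 851 in B16F10 RFP- and 46.8 to 56.0 in MC38 libraries, highest in the number 3 pair of B16F10, and its part was not tested.

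**Figure D5:**
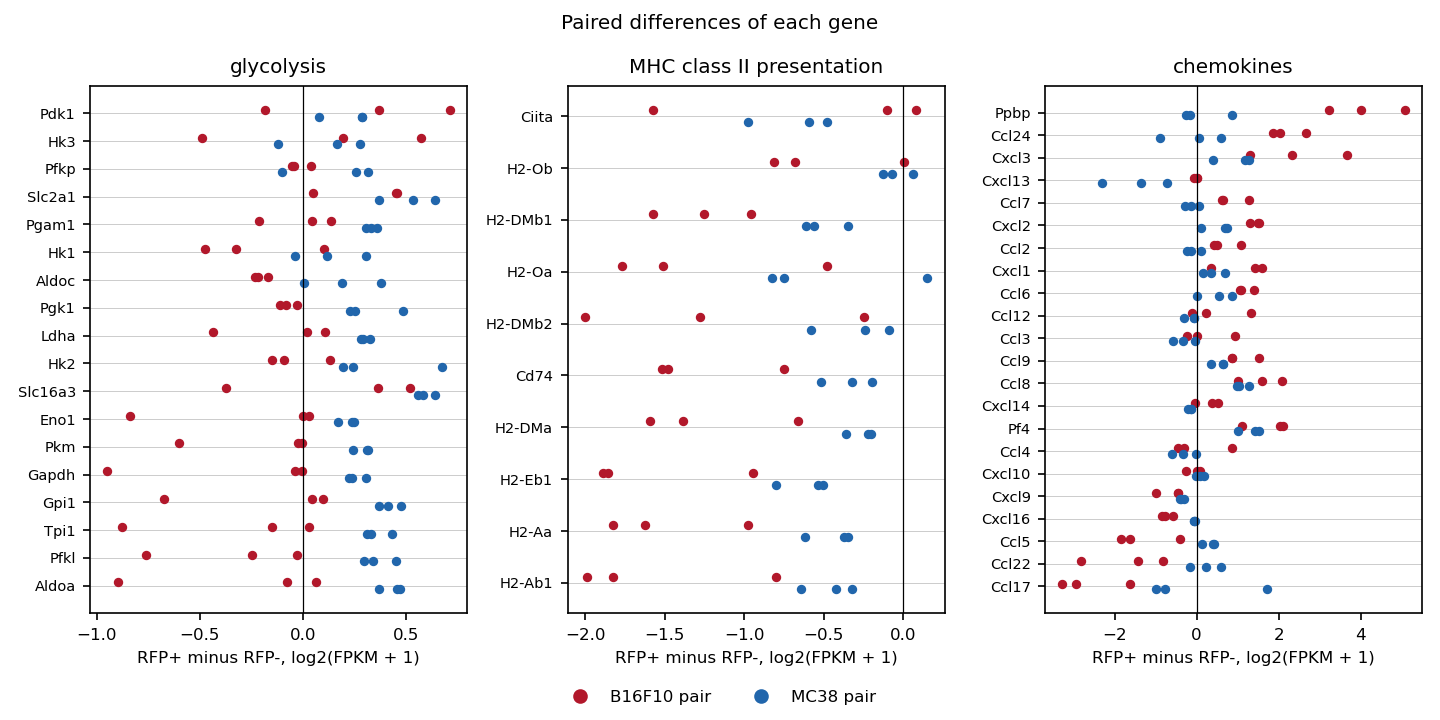
Gate effect of each gene tested of glycolysis, MHC class II presentation and chemokines in each of the 6 pairs, on the scale log2(FPKM + 1), red for B16F10 and blue for MC38, genes ordered by the difference between tumours. Most glycolysis genes are above 0 in the MC38 pairs and near or below 0 in B16F10, and chemokine genes lie on both sides.

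The type I interferon response (25 genes) had medians of 0.32 in B16F10 and 0.05 in MC38. B16F10 lay above MC38 for 7 of 25 members (7.13% of all genes) and below it for 0 (9.28%). In B16F10 1 of 25 members rose (0.83% of all genes), Ddx58, the RIG-I sensor gene. It was at 3.66, 5.71 and 5.47 FPKM in RFP+ and 1.25, 3.58 and 1.68 in RFP- libraries of B16F10, against 17.6, 14.3 and 25.2 and 17.5, 16.9 and 28.3 in MC38. The RFP+ libraries of B16F10 lay above its RFP- libraries, and all MC38 libraries were higher than these. The difference for Ddx58 was 1.08 ± 0.26 (limma adjusted p = 0.392), and for Ifih1, the MDA5 sensor gene, 0.80 ± 0.26 (0.515). The pair medians of the list overlapped with the filter of 5 FPKM and after scaling to the macrophage core genes, and its median difference fell to 0.12 with a pseudocount of 5. The interferon gamma response (22 genes) had medians of 0.05 in B16F10 and -0.05 in MC38 with overlapping pairs, and its median difference of 0.13 was -0.042 without the number 12 pair. Of its members 13 had a difference above 0 and 9 below. MC38 lay above B16F10 for 4 of 22 members (9.28% of all genes) and below it for 1 (7.13%).

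Matrix remodelling genes were above 0 in both tumours, with medians of 0.36 in B16F10 and 0.33 in MC38 over 20 genes. In B16F10 6 of 20 members rose (0.83% of all genes) and in MC38 3 did (0.356%). B16F10 lay above MC38 for 6 of 20 members (7.13% of all genes) and below it for 0 (9.28%). Fn1, the fibronectin gene, rose by 1.57 ± 0.12 and 0.80 ± 0.12 (limma adjusted p = 0.000199 and 0.0223), and Mmp13, the collagenase 3 gene, had gate effects of 2.16 ± 0.19 and 1.03 ± 0.19. Their differences were 0.76 ± 0.18 and 1.13 ± 0.27 (limma adjusted p of 0.392 and 0.392). The median difference of 0.28 was 0.0097 with the filter of 5 FPKM.

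Lipid-associated macrophage genes pointed in both directions. Over 18 genes the medians were 0.46 in B16F10 and 0.50 in MC38. In B16F10 5 of 18 members rose (0.83% of all genes) and in MC38 4 did (0.356%). B16F10 lay above MC38 for 5 of 18 members (7.13% of all genes) and below it for 3 (9.28%). Ctsl and Spp1 stood on the B16F10 side and Gpnmb on the MC38 side, as did Fabp5, a fatty acid carrier gene named after its values were seen. Fabp5 was at 890.4, 693 and 911 FPKM in B16F10 RFP+, 814, 546 and 486 in B16F10 RFP-, 188, 220.4 and 122 in MC38 RFP+ and 56.9, 103 and 43 in MC38 RFP- libraries. It rose by 1.43 ± 0.16 in MC38 (limma adjusted p = 0.00534) with a gate effect of 0.46 ± 0.16 in B16F10, a difference of -0.97 ± 0.23 (limma adjusted p = 0.392). The median difference of 0.22 was -0.044 without the number 12 pair.

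Alternative activation, a list drawn up for targets of IL-4 and STAT6, was near 0 in B16F10 (median -0.03 over 19 genes) and at 0.22 in MC38. Whether each member, Fcrls among them, is such a target was not tested. Its members went both ways, 4 of 19 with B16F10 above (7.13% of all genes) and 4 with MC38 above (9.28%), led by Ccl24 on one side and Fcrls and Ccl22 on the other. The median difference of -0.30 was -0.05 without the number 3 pair of B16F10 and 0.098 without the number 3 pair of MC38. For this list the lowest MC38 pair median, 0.188, lay barely above the highest of B16F10, 0.181. With the filter of 5 FPKM its pair medians overlapped. Arginine and polyamine metabolism (20 genes) had a median difference of -0.15, and Ass1 was the 1 member past for it. Among C-type lectin, Fc and scavenger receptors (22 genes) Axl, a receptor for apoptotic cells, fell by 1.13 ± 0.14 in B16F10 (limma adjusted p = 0.00275) against -0.18 ± 0.14 in MC38, a difference of -0.94 ± 0.20 (limma adjusted p = 0.332). Cd36, a fatty acid and scavenger receptor gene, rose by 1.60 ± 0.19 in B16F10 (limma adjusted p = 0.00191) against 0.75 ± 0.19 in MC38, a difference of 0.85 ± 0.27 (limma adjusted p = 0.515).

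The remaining lists had overlapping pair medians and no member past for the difference except Ctsl, which the lysosome list also holds. Their median differences were -0.034 for classical activation, 0.054 for Toll-like receptor and NF-kB feedback genes, -0.057 for complement and resident-like genes, -0.061 for monocyte-like genes, 0.17 for immune suppression and checkpoint ligands and -0.058 for lysosome. They were 0.032 for cholesterol and fatty acid synthesis, 0.057 for the unfolded protein and integrated stress response, 0.18 for oxidative stress, heme and iron, -0.044 for immediate early genes, 0.0032 for cell cycle and -0.039 for lineage transcription factors. Most of these values depended on single pairs. Over left-out pairs the value for Toll-like receptor and NF-kB feedback genes ran from -0.12 without the number 12 pair of B16F10 to 0.22 without its number 3 pair. That for monocyte-like genes ran from -0.20 without the number 11 pair of B16F10 to 0.16 without its number 3 pair, and that for immune suppression from 0.085 to 0.27 without the same pairs. Complement and resident-like genes ran from -0.17 without the number 2 pair of MC38 to 0.018 without its number 3 pair. Oxidative stress, heme and iron ran from 0.021 without the number 12 pair of B16F10 to 0.26 without its number 3 pair. Cell cycle ran from -0.089 without the number 3 pair of B16F10 to 0.11 without its number 12 pair, and lineage transcription factors from -0.15 without the number 3 pair to 0.022 without the number 11 pair. Without the number 11 pair of B16F10 the value was 0.036 for classical activation, 0.016 for lysosome and 0.093 for cholesterol and fatty acid synthesis. The last was -0.032 without the number 12 pair, immediate early genes were at 0.051 and the unfolded protein response at 0.023 without the number 3 pair of B16F10. Of these 12 lists, only immune suppression, the unfolded protein response and oxidative stress kept the sign of the median difference over all left-out pairs. Ptgs2, the cyclooxygenase 2 gene, rose in B16F10 by 1.29 ± 0.19 (limma adjusted p = 0.00885) against 0.39 ± 0.19 in MC38, and Nt5e, the CD73 gene that makes adenosine, rose by 1.60 ± 0.18 (0.00148) against 0.77 ± 0.18. Their differences of 0.90 ± 0.28 and 0.83 ± 0.25 did not pass (limma adjusted p = 0.515 and 0.515). Lyve1, a hyaluronan receptor gene of perivascular macrophages, rose in B16F10 from 0.316, 0.121 and 0.0455 to 2.32, 1.24 and 8.81 FPKM. Its gate effect was 1.85 ± 0.35 there against 0.09 ± 0.35 in MC38. Lyve1 reached 1 FPKM only in the B16F10 RFP+ libraries and the number 2 pair of MC38. It thus entered the fit through the group where it was high, and its pass of the threshold in B16F10 is no valid test. The number 2 pair of MC38 was at the level of B16F10 RFP+ in both gates, while the other MC38 libraries were at 0.291 FPKM or less.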

How the data were processed

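Each of the 12 libraries was 1 table of gene symbols with FPKM values, the unit per the file headers, as deposited by the authors. RNA was extracted with TRI Reagent, and cDNA and libraries were made with SMART-Seq HT and Nextera XT kits, per the labels' protocols. Per the submitters' processing notes the mm10 build was used, with the aligner TopHat2 2.1.1, Bowtie2 2.2.8, the quantifier Cuffdiff 2.2.1 and also SAMtools 0.1.18. How libraries were scaled to each other, the strand setting and the annotation: not given in the sources used here. Without read counts in use here a count model could not be fitted, and depth is known only in relative terms.

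Of 24346 symbols 11808 were kept, those that reached 1 FPKM in 3 or more libraries. limma 3.58.1 in R 4.3.3 was fitted to log2(FPKM + 1) in 1 model with the 6 pairs as a block and 1 gate effect per tumour (lmFit, eBayes with a trend, 4 residual degrees of freedom). Tests were two-sided, with Benjamini-Hochberg adjustment over all 11808 genes and a threshold of 0.05. A log2(FPKM + 1) difference understates changes of low genes. Errors are SE. With 3 pairs against 3 an exact permutation test cannot go below p = 0.1, so none is given. The code was tested on simulated data.

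The title numbers stand in both gates. Deviations from the group means of same-numbered libraries correlated at r from 0.228 to 0.443 (6 pairs), and those of different numbers at r from -0.306 to 0.0178. The numbers were taken as pairs. Each group mean was taken over 3 libraries, so positive values for the same number push those of different numbers below 0. The contrast with different numbers is therefore no independent check of the pairing. Libraries are not tied to single animals by any label, and the p-values therefore measure the spread between these libraries, which may be partly technical.

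The members, the 25 lists, the 13 marker lists and the naming rule were chosen with earlier results of these data known. The rule took called genes averaging at least 5 FPKM in a group, up to 8 in each direction by unadjusted p among non-overlapping genes, sign-turning genes of at least 0.5 in both tumours, 12 base genes and up to 3 members of each list. Small RNAs and unnamed genes were left out. Genes outside the rule are stated as named after their values were seen, apart from Itgb3 and Ccl17. Itgb3 was named as a tested member of the platelet marker list, and Ccl17 as a chemokine gene with non-overlapping pairs, seen in its values. Positions are from the GENCODE annotation of GRCm38, in which 1 named symbol found no match, and promoters from RefSeq. Plots were made with Python 3.11.15, numpy 2.4.6 and matplotlib 3.10.9.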

Additional observations from a re-analysis of the deposited data

Results flagged for a closer look

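The difference between the gate effects of B16F10 and MC38 passed the test of that difference itself (limma, pairs as a block, adjusted p = 0.0332 for each) for 4 genes: 3.96 for Ppbp, 1.14 for Ctsl, -1.86 for Ass1 and 1.90 for Snord15b, all on the scale log2(FPKM + 1). For Ppbp and Ass1 the gate effect passed in B16F10 and not in MC38, for Ctsl in both, and Snord15b was listed at 0 in all B16F10 libraries. Snord15b entered the fit through the MC38 RFP- libraries, where it was high, so that its value is no valid test of a difference.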

How the results depend on the processing

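The number of genes past the threshold for the difference, 4, was 1 with a pseudocount of 0.1 and 1 with 5, 0 with no filter (limma, 19864 genes, 1225 at an unadjusted p under 0.05), 3 with a filter of 5 FPKM, 6 with quantile normalization, 5 with upper-quartile scaling, 2 after scaling to the macrophage core genes and 2 without the trend. With no replicate block 0 passed in limma (455 at an unadjusted p under 0.05). Leaving out 1 pair at a time gave 0 to 7. It was 7 without the number 12 pair of B16F10, the pair holding the library that stood apart, with Ctsl and Ass1 among them, and 0 without the number 11 pair of B16F10 or the number 1 or 3 pair of MC38.

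Genes past the threshold in B16F10, 160, were 32 with no filter, 242 with quantile normalization, 21 without the replicate block and 90 without the trend, and 52 to 221 over left-out pairs, lowest without its number 3 pair. Those in MC38, 52, were 3 with no filter, 7 with core scaling, 3 without the block and 17 without the trend, and 6 to 137 over left-out pairs. Sign-turning genes, 517, were 784 to 1001 and non-overlapping genes, 1938, were 2861 to 4052 over left-out pairs, where fewer pairs make both easier. Lists with non-overlapping pair medians, 6, were 7 to 11.

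Of the named genes' values over all other settings 1600 kept direction and side of the threshold, 38 lost the call, all of the 4 called genes, 7 gained it and 2 turned sign, both for Arg1 (-0.11 without the number 11 pair of B16F10 and -0.027 without the number 1 pair of MC38, and up to 0.21). List medians that exceeded their spread between pairs turned sign for interferon gamma response (-0.042) and lipid-associated genes (-0.044) without the number 12 pair of B16F10, and for alternative activation (0.098) without the number 3 pair of MC38. Over left-out pairs these reached 0.16, 0.29 and -0.35. Core scaling moved the median B16F10 gate effect of all genes to -0.11. The causes were not tested. The shallower B16F10 libraries limit low genes there, such as Ass1 in RFP+ cells.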
